A study of Mus musculus with 141 samples.

Results

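The genes for the major urinary proteins described here are Mup1, Mup2, Mup3, Mup4, Mup5, Mup6, Mup20 and Mup21, taken by their symbols from the 24423 genes of each deposited table. All 8 were present in the tables, which hold 21 Mup genes in all. Their expression was measured by RNA-seq in 3 tissues, liver, lung and kidney, from each of 47 Collaborative Cross (CC) strains, a panel of recombinant inbred mice. Each strain was represented by 1 adult male mouse of 8 to 12 weeks, fed the NTP 2000 diet and kept in clean-air exposure chambers for 6 hours on weekdays over 2 weeks, and every group shares these conditions. A strain and the mouse that stands for it cannot be told apart, and females were not analysed here. The 3 groups are the 47 libraries of each tissue.

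Major urinary proteins are small secreted lipocalins, barrel-shaped carriers that bind volatile pheromones and are made in the liver, released into blood and excreted in urine, where they carry individual and sex-specific scent. Their genes lie in a tandem array in which many copies are nearly the same, and transcription in the liver is known to depend on growth hormone and androgen. Mup20 encodes darcin, the protein that attracts females to male scent marks. Mup4 and Mup5 are known from glands and nasal tissue rather than from liver, and Mup3 and Mup21 are among the peripheral, more diverged copies.

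On build NCBIM37 with GENCODE vM1 annotation, the 8 protein-coding genes spanned 1842 kb of chromosome 4. In order along the chromosome they were Mup4 (chr4:59969676-59973582), Mup6 (chr4:59977166-60020146), Mup2 (chr4:60080259-60167161), Mup1 (chr4:60510884-60514832), Mup5 (chr4:61492353-61496267), Mup20 (chr4:61711268-61715192), Mup3 (chr4:61744510-61748376) and Mup21 (chr4:61808966-61811897). Mup6 lay on the plus strand and the other 7 on the minus strand. The gap between Mup20 and Mup3 was 29317 bases, and that between Mup3 and Mup21 was 60589 bases.

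The coding sequences could be aligned without gaps over 492 bases that start near the end of the signal peptide and end with the stop codon. Over this stretch, pairs of members were 84.1% to 99.6% identical, with a median of 89.5% over 28 pairs. Mup1 and Mup2 differed at 2 of the 492 bases, and Mup3 and Mup21 at 15. Mup3 and Mup21 each differed from Mup1 and from Mup2 at 78 bases, the most of any pair. The 60-base window with the most variable positions, 25 of 60, is shown for all members because it carries the bases that tell their reads apart. Capitals mark bases that differ from the most common base of the 8 members at that position, and at the 1 position where c and t tie, with 3 members each, c was taken as the most common.
Mup3: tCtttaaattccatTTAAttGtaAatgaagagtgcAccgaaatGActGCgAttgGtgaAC
Mup21: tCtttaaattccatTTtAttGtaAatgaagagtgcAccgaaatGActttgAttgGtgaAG
Mup20: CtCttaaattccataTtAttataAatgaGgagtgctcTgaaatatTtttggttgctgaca
Mup1: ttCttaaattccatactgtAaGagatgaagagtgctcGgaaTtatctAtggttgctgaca
Mup2: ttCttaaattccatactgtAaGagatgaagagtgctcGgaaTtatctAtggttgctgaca
Mup5: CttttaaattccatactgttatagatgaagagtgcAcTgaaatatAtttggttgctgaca
Mup4: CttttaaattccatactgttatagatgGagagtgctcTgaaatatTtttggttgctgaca
Mup6: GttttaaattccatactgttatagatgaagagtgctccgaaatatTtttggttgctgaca

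The window crosses the junction of exons 2 and 3, at chr4:61747834-61747852 and chr4:61747026-61747066 in Mup3 and at chr4:61811229-61811247 and chr4:61810421-61810461 in Mup21. In Mup20 it lies at chr4:61714514-61714532 and chr4:61713703-61713743, in Mup1 at chr4:60514154-60514172 and chr4:60513344-60513384, and in Mup2 at chr4:60152091-60152109 and chr4:60151292-60151332. The positions are chr4:61495589-61495607 and chr4:61494774-61494814 in Mup5, chr4:59972911-59972929 and chr4:59972101-59972141 in Mup4, and chr4:60016965-60016983 and chr4:60017686-60017726 on the plus strand in Mup6. Mup3 carried 16 capitals and Mup21 carried 13, while Mup1 and Mup2 carried the same 6 and were identical to each other. None of the 11 read positions inside this window was unique to Mup1 or to Mup2, whereas all 11 were unique in each of the other 6 members.

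Reads were 50 bases long and the study kept those with a unique alignment, so the share of a transcript made of unique 50-base windows limits what can be counted. A window was taken as unique when it occurred at most once in the genome and in the transcripts of no other gene. By this measure the main transcript was unique over 95.8% of its windows for Mup6, 87.4% for Mup4, 83.1% for Mup3, 81.8% for Mup5, 80.7% for Mup21 and 39.1% for Mup20. For Mup1 it was 46 of 878 windows, or 5.24%, and for Mup2 it was 0 of 878. The full coding sequences of Mup1 and Mup2 differed at T25G, C91G and G472A, where the base of Mup2 stands first, positions are counted from the start codon and the base of Mup1 stands last. Of the 46 unique windows of Mup1, 33 cover T25G, shown in capitals in the first 60 coding bases, at chr4:60514662-60514721 in Mup1 and chr4:60152599-60152658 in Mup2, both on the minus strand.
Mup1: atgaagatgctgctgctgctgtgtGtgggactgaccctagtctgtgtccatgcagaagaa
Mup2: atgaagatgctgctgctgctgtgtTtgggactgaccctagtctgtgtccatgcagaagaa

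These windows describe the C57BL/6J reference, whereas the reads were aligned to a genome made for each strain, whose sequence was not used here. For Mup1, Mup2 and Mup20 in particular, few transcripts and few placeable reads cannot be told apart in a strain with a low value.

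**Figure D1:**
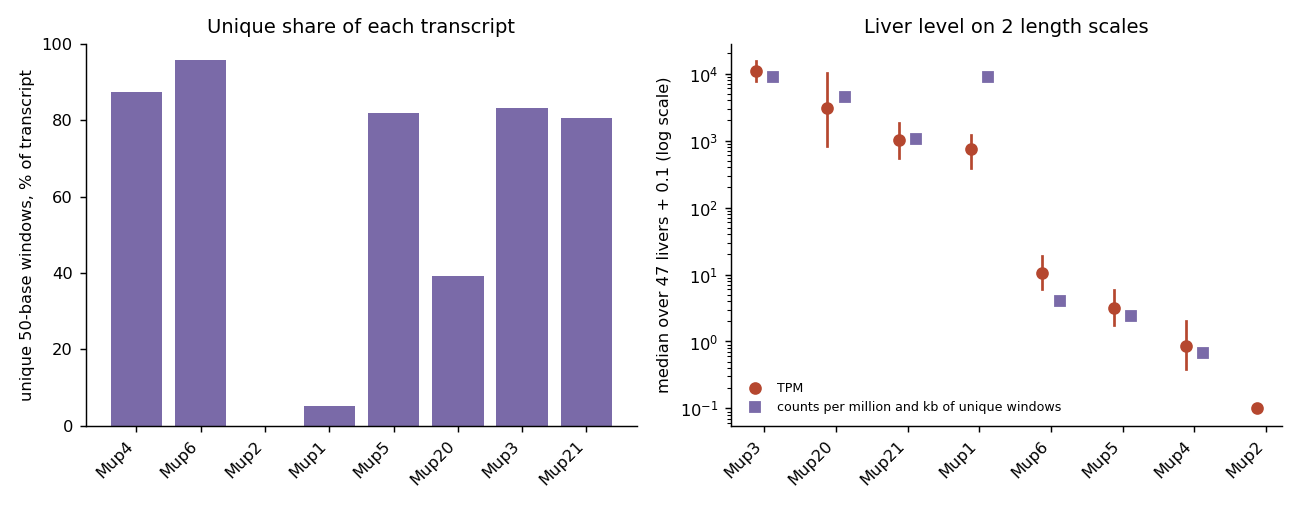
Left, percent of the 50-base windows of each member's main transcript that are unique in NCBIM37, in chromosome order, with Mup1 at 5.24% and Mup2 at 0. Right, median liver level over 47 strains plus 0.1 on a log scale, as TPM (circles, with lines from the lower to the upper quartile) and as CPM per kilobase of unique windows (squares), where Mup1 lies at 9009 against a TPM of 759.

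The upstream sequence of Mup2, Mup3, Mup4, Mup6 and Mup21 was taken from RefSeq on GRCm38.p6, and the other 3 members had no entry in that table. The 60 bases before the annotated gene start are shown because a motif of 7 bases, TATATAA, is shared by all 5 in spite of their different levels in liver. Capitals mark the motif. The positions on GRCm38.p6 are chr4:62087318-62087377 for Mup3, chr4:62150842-62150901 for Mup21, chr4:60003421-60003480 for Mup6, chr4:59960668-59960727 for Mup4 and chr4:60139857-60139916 for Mup2, with Mup6 on the plus strand and the others on the minus strand.
Mup3: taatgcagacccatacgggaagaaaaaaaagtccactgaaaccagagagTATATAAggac
Mup21: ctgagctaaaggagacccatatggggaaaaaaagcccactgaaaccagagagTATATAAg
Mup6: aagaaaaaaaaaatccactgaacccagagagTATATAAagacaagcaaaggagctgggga
Mup4: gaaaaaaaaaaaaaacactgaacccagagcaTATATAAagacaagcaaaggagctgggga
Mup2: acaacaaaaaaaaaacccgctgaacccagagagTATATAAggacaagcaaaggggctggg

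On either strand, this motif was found in the same window of 1.06% of 32851 promoters. It began 29 bases before the annotated start in Mup4 and Mup6 and 27 bases before it in Mup2, but 11 bases before it in Mup3 and 8 in Mup21, whose annotated starts lie further upstream in the aligned sequence. A match is a description of the letters and not of a bound site.

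The depth of the libraries ranged from 1738046 to 42158454 counts, with medians of 10423382 in liver, 9338124 in lung and 8245850 in kidney. The livers of CC036 and CC039 and the lungs of CC010 and CC045 held under 3000000 counts. A count of 3 was taken as the smallest that can be read as present, and corresponded to a median CPM, the count relative to the total of its library, of 0.288 in liver, 0.321 in lung and 0.364 in kidney. Each tissue showed its own markers: the summed TPM of 10 hepatocyte genes, among them Alb and Apoa1, had a median of 142728 in liver, against 691 in lung and 536 in kidney. The summed TPM of 5 lung epithelial genes had a median of 83773 in lung and 65.1 in liver, and that of 5 kidney tubule genes 90962 in kidney and 61.2 in liver.

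Levels are compared between genes as TPM, the share of all transcripts after division by transcript length, as the authors computed it. Mup3 was the most abundant member in liver, with 106 TPM in the lowest strain (CC006), a median of 10879 and 24189 in the highest (CC037). Mup20 ranged from 8.62 TPM (CC068) through a median of 3056 to 33300 (CC042). Mup3 was highest of the 8 in 37 livers, Mup20 in 9 and Mup6 in 1, so the gene that led differed by strain.

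Mup21, which is 97.0% identical to Mup3 over the aligned coding stretch, had a lowest, median and highest liver TPM of 19.0, 1025 and 5085. Mup1 had 51.6, 759 and 2481 TPM. As means, Mup3 stood at 11155 ± 6135 TPM, Mup20 at 6227 ± 7313, Mup21 at 1495 ± 1385 and Mup1 at 873 ± 614 (SD, n = 47). The SD of Mup20 exceeded its mean, and these 4 members were above 3 counts in all 47 livers.

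The other 4 members were low in liver. Mup6 had a median of 10.5 TPM and was at most 39.9 TPM in 45 strains, but reached 2538 TPM in CC040 and 12373 in CC041. Mup5 had a median of 3.06 TPM and a highest value of 13.0 (CC057), and was at or under 3 counts in 8 livers. Mup4 had a median of 0.77 TPM and a highest value of 5.43 (CC046), with 31 livers at or under 3 counts. In CC041, Mup6 was the most abundant member, although its median over strains was 19 counts.

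Mup2 had no read in 36 livers. It was above 3 counts in the other 11, from 6 counts or 1.5 TPM in CC038 to 88 counts or 20.01 TPM in CC030. These were the livers of CC001, CC015, CC019, CC021, CC024, CC028, CC029, CC030, CC031, CC038 and CC055, and no liver lay between 0 and 6 counts. Since no window of the main reference transcript is unique, that transcript could give no unique read in a strain that carries the reference sequence. Other transcript models of Mup2 were not used here. The sequence of the array in these strains was not tested.

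**Figure D2:**
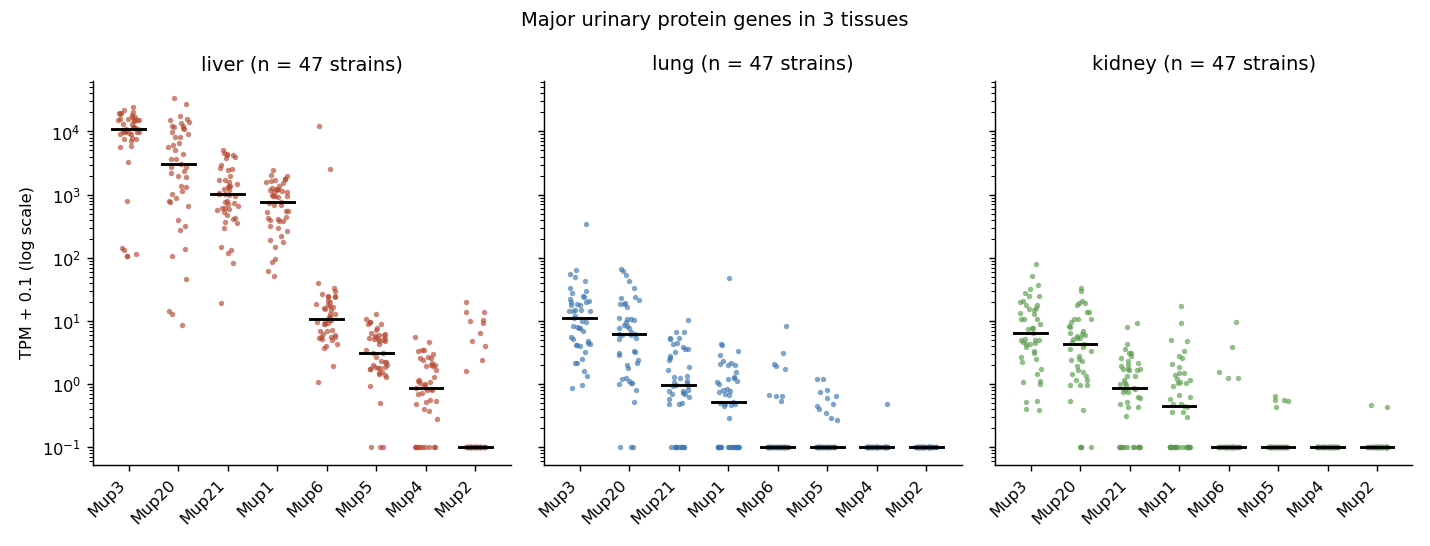
TPM plus 0.1 of the 8 members on a log scale in liver, lung and kidney, with 1 point per strain and a black line at the median of 47 strains. In liver Mup3 spans 106 to 24189 and Mup20 8.62 to 33300, and Mup6 lies at 2538 and 12373 in 2 strains, while in lung and kidney Mup2, Mup4 and Mup5 lie at or near 0.

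Neighbours in the order of liver levels were compared within libraries as differences of log2(TPM + 1), with a 2-sided permutation test of 100000 random sign flips over the 47 strains, whose smallest possible p is 1e-05. Mup3 exceeded Mup20 by 1.71 ± 4.01 (SD) and in 38 of 47 livers (permutation p = 0.0051). Mup20 exceeded Mup21 by 1.198 ± 3.067 and in 37 livers (permutation p = 0.0096). Mup21 and Mup1 differed by 0.56 ± 2.08, with Mup21 higher in 29 livers (permutation p = 0.071). Without CC016 and CC033 the difference was similar, at 0.62, with a p just under 0.05 (permutation p = 0.0499).

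Mup1 exceeded Mup6 by 5.37 ± 2.004 in 45 of 47 livers, Mup6 exceeded Mup5 by 1.85 ± 2.23 in 46, and Mup5 exceeded Mup4 by 1.09 ± 0.72 in 42 (permutation p = 1e-05 for each). Mup4 and Mup2 differed by 0.25 ± 1.503 (permutation p = 0.252), but by 1.47 as log2(TPM + 0.1) (permutation p = 0.0031). The zeros of Mup2, whose main transcript has no unique window in the reference, are not a measured level.

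The order depends on the length that counts are divided by. As CPM per kilobase of unique windows, Mup1 had a median of 9009, close to 8853 for Mup3 and above 4475 for Mup20 and 1040 for Mup21. On that scale the mean log2 difference of Mup21 from Mup1 was -2.98 (permutation p = 1e-05), the reverse of the order in TPM, and Mup3 and Mup20 differed by 0.65 (permutation p = 0.274). The scale rests on 46 reference windows for Mup1.

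The 8 members together held 0.0234% of the counts in the liver of CC016 (95% exact binomial interval 0.0226 to 0.0243), a median of 0.602% and 1.46% in CC042 (1.45 to 1.47). All 21 Mup genes held a median of 0.795%. Within the members' counts, Mup3 made up 0.382% to 97.6% and Mup20 0.0455% to 86.5%, so the make-up of these counts differed widely between livers. The share of reads that can be placed differs by member, so these are not shares of transcripts. The binomial intervals cover counting error only.

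The spread of the members across strains was large next to other genes. Among the 9499 genes that exceeded 1 CPM in 30% or more of the livers, the median SD of log2 CPM was 0.406. It was 2.95 for Mup20, 2.20 for Mup3, 2.08 for Mup6, 1.62 for Mup21, 1.42 for Mup1 and 1.39 for Mup5, which puts each of these above 96.0% of the genes. Mup5 and Mup6 had median counts of 11 and 19, and Mup6 was far higher in CC040 and CC041 than elsewhere. The part of counting error in these spreads was not tested. Mup2 and Mup4 did not pass this filter.

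**Figure D3:**
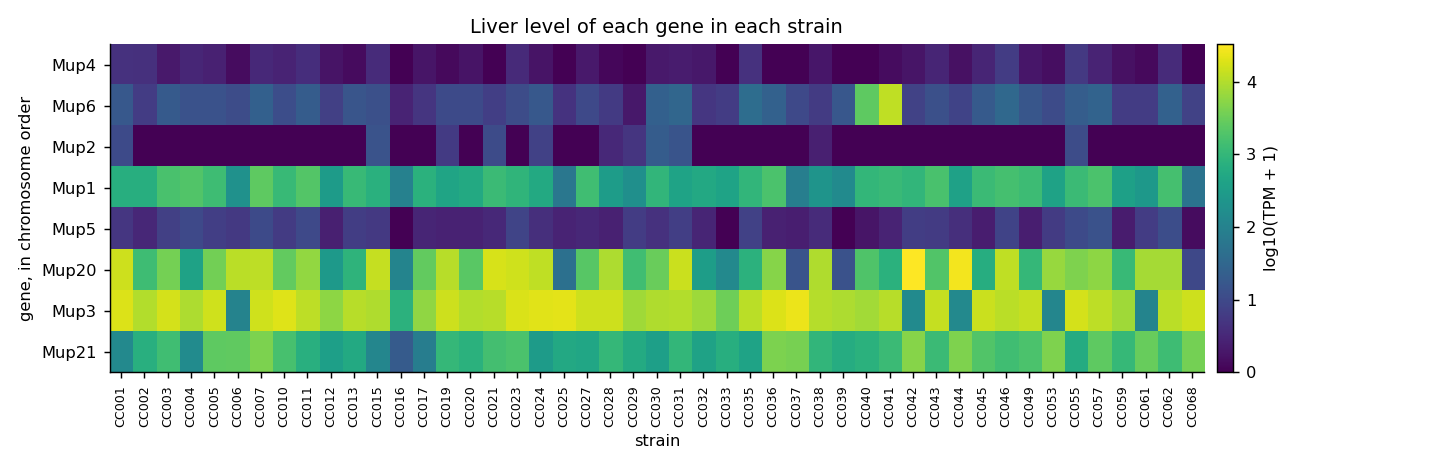
Liver level of each member (rows, in chromosome order) in each of 47 strains (columns), as log10(TPM + 1) by colour. Mup3 is low in CC006, CC016, CC042, CC044, CC053 and CC061, Mup20 is low in CC016, CC025, CC033, CC037, CC039 and CC068, and Mup6 is high in CC040 and CC041.

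For 4 members, the strains were split into separate ranges. The split was at the largest gap between neighbouring livers, where this was at least 1.5 on the log2 CPM scale. Mup3 was between 106 and 805 TPM in CC006, CC016, CC042, CC044, CC053 and CC061, and between 3304 and 24189 in the other 41. CC016, at 805 TPM, was itself apart from the rest of the low range, which lay at 106 to 144 TPM. Mup20 was between 8.62 and 135 TPM in CC016, CC025, CC033, CC037, CC039 and CC068, and between 279 and 33300 in the other 41. Its gap was 1.56 on log2 CPM. In TPM, the fold step from 14.1 (CC037) to 46.1 (CC025) was larger than that from 135 (CC033) to 279 (CC012). The grouping for Mup20 thus depends on the scale. By this rule, only CC016 was in the low range for both.

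Of the 6 strains low for Mup3, all but CC016 were in the upper range for its neighbour Mup20. In CC006, CC042, CC044, CC053 and CC061, Mup3 had 223 to 581 counts while Mup20 had 27048 to 131093, and Mup20 led the members in all 5. Mup21 had 2609 TPM in CC006, 5085 in CC042, 4531 in CC044, 4382 in CC053 and 2977 in CC061, and all 5 were among its 10 highest livers. CC042 and CC044 were the 2 highest of 47 for both Mup20 and Mup21.

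Most strains low for Mup20 were not low for Mup3. Mup3 had 24189 TPM in CC037, 21863 in CC025, 15247 in CC068 and 9243 in CC039, against 14.1, 46.1, 8.62 and 12.6 TPM of Mup20 in the same libraries. CC037 and CC025 were the 2 highest livers for Mup3. In 5 of the 6 strains low for Mup20, Mup1 was also at its lowest: CC068, CC025, CC037, CC016 and CC039 were the 5 lowest of 47 livers for Mup1, with 51.6, 61.6, 84.5, 96.3 and 146 TPM.

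CC016 stood apart in another way, since Mup3, Mup20 and Mup21 were all low there, at 805, 107 and 19.0 TPM. Its hepatocyte markers summed to 85528 TPM, under the liver median of 142728, in a range of 43251 to 202022. Its Icam1 and Top2a were the highest of the 47 livers, at 32.7 and 3.18 TPM against medians of 7.58 and 0.62. CC033, with 0.0854% of counts from the members, had the lowest hepatocyte sum, at 43251 TPM. It also had the lowest Icam1 and Top2a of the 47 livers, at 1.71 and 0.17 TPM. The part of these markers in the low levels was not tested, and in bulk tissue fewer hepatocytes and less RNA per hepatocyte cannot be told apart.

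Between members, relations over strains were computed for the 15 pairs of the 6 members that passed the liver filter, as Pearson r of rank inverse normal values and Spearman rho of log2 CPM, with p from 100000 permutations that are not adjusted over the pairs. Strains in the separate range of either member were left out, because a pooled r would mix the ranges, and this choice was made after the ranges had been seen. Mup3 and Mup20 were then related over the remaining 36 strains (r = 0.54, rho = 0.46, permutation p = 0.00081 and 0.0052), and r was 0.39 when the 2 strains most distant from the Mup3 median were left out. Mup3 and Mup21 (r = 0.44, rho = 0.42, permutation p = 0.0041 and 0.0071, n = 41) and Mup20 and Mup21 (r = 0.40, rho = 0.39, permutation p = 0.0094 and 0.013, n = 41) were related as well, with r = 0.41 and 0.35 without the 2 farthest strains. Over all 47 livers, r was 0.042 for Mup3 and Mup20 (rho = 0.10, permutation p = 0.78 and 0.50), 0.0070 for Mup3 and Mup21 (rho = 0.073, permutation p = 0.96 and 0.63) and 0.32 for Mup20 and Mup21 (rho = 0.31, permutation p = 0.030 and 0.036). The relations of Mup3 were thus seen only after strains were left out by the levels of the genes compared, and are a description of the strains that remained.

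Mup1 and Mup6 had the highest r, 0.64 over 45 strains (rho = 0.69, permutation p = 1e-05 for both, the smallest possible), and 0.59 without the 2 farthest strains. Mup1 and Mup5 had r = 0.52 and rho = 0.44 over 47 strains (permutation p = 0.00024 and 0.0022), with 0.47 without the 2 farthest. Mup5 and Mup6 (r = 0.40, rho = 0.42, permutation p = 0.0068 and 0.0050, n = 45) and Mup5 and Mup20 (r = 0.36, rho = 0.35, permutation p = 0.022 and 0.024, n = 41) were related too, with r = 0.39 and 0.36 without the 2 farthest, and with r = 0.24 (permutation p = 0.102) and 0.55 (permutation p = 6e-05) over all 47 livers. No relation was detected between Mup1 and Mup3 (r = -0.017, rho = -0.026, permutation p = 0.92 and 0.87, n = 41), or between Mup1 and Mup20 (r = -0.14, rho = -0.17, permutation p = 0.40 and 0.27, n = 41). The strains left out for Mup20 included the 5 lowest livers for Mup1. With all 47 livers, r was 0.17 for Mup1 and Mup3 (rho = 0.20, permutation p = 0.26 and 0.17) and 0.26 for Mup1 and Mup20 (rho = 0.15, permutation p = 0.082 and 0.32). Such pairs share libraries and a scaling factor, and Mup5 rests on a median of 11 counts.

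**Figure D4:**
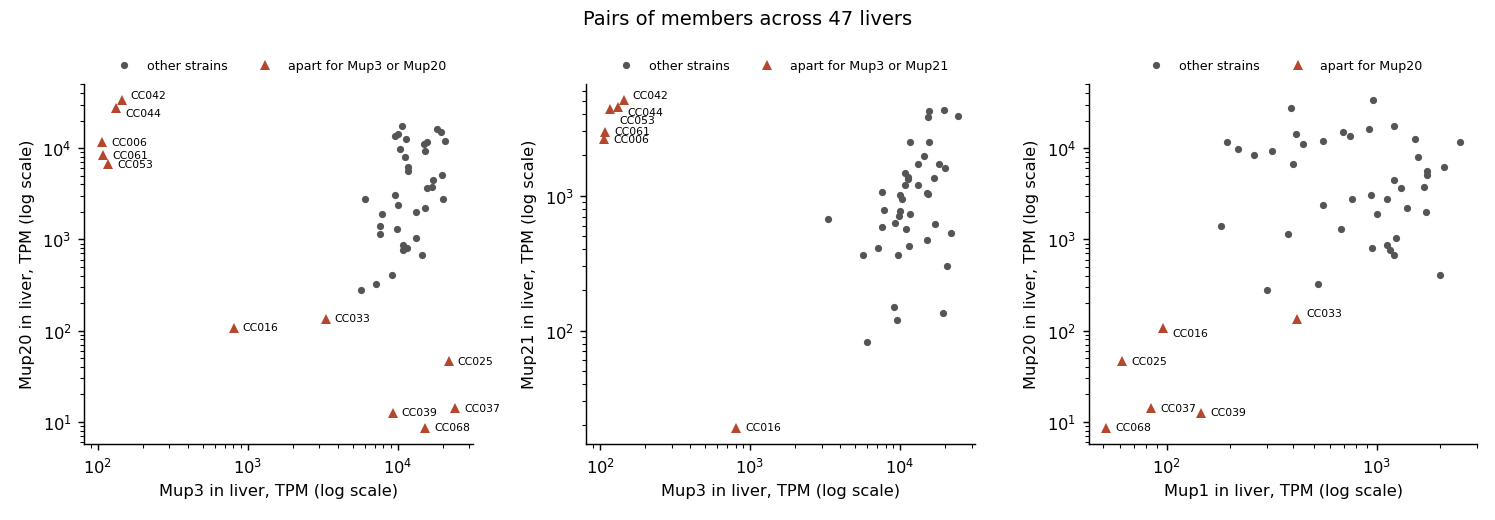
TPM of Mup20 against Mup3, Mup21 against Mup3 and Mup20 against Mup1 in 47 livers, on log scales, with triangles and names for the strains in a separate range of either gene. CC006, CC042, CC044, CC053 and CC061 lie high for Mup20 and Mup21 at 106 to 144 TPM of Mup3, and the strains low for Mup20 lie at the left of the Mup1 axis apart from CC033.

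Genes that varied with a member over the 47 livers were sought by fitting limma-voom across 9498 genes, once for each of the 6 members, with the member's rank inverse normal value as covariate and Benjamini-Hochberg adjustment to q over all genes. A coefficient is the change in log2 expression for 1 SD of the member. At q ≤ 0.1, 0.305% of the genes were called along Mup1 (29 genes), 0.137% along Mup21 (13), 0.0526% along Mup5 (5), 0.0316% along Mup3 (3), and 0.0105% (1 gene) along each of Mup20 and Mup6. Without CC016 and CC033, the 2 livers with the lowest share of member counts, 18 genes were called along Mup1, 1 along Mup21, 0 along Mup3 and 2 along Mup6. An unadjusted p under 0.05 was reached by 751 genes along Mup1, 728 along Mup21, 726 along Mup3 and 846 along Mup6 with all livers.

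Among the members themselves, 3 of 30 directed pairs were called. Mup5 rose along Mup1 (coefficient 0.84 ± 0.13 SE, limma q = 0.00023), Mup20 rose along Mup5 (1.96 ± 0.37, limma q = 0.0097) and Mup1 rose along Mup6 (0.87 ± 0.17, limma q = 0.066). The reverse fits gave q = 0.11 for Mup1 along Mup5, 0.18 for Mup5 along Mup20 and 0.45 for Mup6 along Mup1, so the call depended on which gene was the covariate. For Mup1 along Mup6, limma q was 0.103 without CC016 and CC033, 0.118 with library size as a covariate and 0.54 with log2 CPM of Mup6 as covariate. For Mup20 along Mup5 it was 0.119 with no filter on low counts, and Mup5 along Mup1 was called under all 7 alternatives, with q of 2.58e-05 to 0.0036.

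Of the 13 other Mup genes, 8 passed the liver filter. The 13 had medians from 0 to 869 TPM in liver, highest for Mup10, and Mup15 and Mup19 had no read in any library. Mup9 rose along Mup1 by 3.74 ± 0.58 (SE, limma q = 0.00026, rho = 0.83), from a range over strains of 0.40 to 6167 TPM. Mup10 (2.94 ± 0.71, limma q = 0.067) and Mup16 (2.08 ± 0.49, limma q = 0.062) rose along Mup1 and Mup16 also along Mup5 (2.44 ± 0.52, limma q = 0.055). How many reads of each Mup gene can be placed in each strain was not tested. For these genes, transcripts that vary together and placeable reads that vary together cannot be told apart.

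Mup17 rose along Mup3 (2.23 ± 0.46, limma q = 0.086) and Mup18 along Mup21 (2.15 ± 0.48, limma q = 0.068). Mup12 fell along Mup1 by 2.15 on the log2 scale (limma q = 0.067) with a rank correlation of 0.05, and Mup12 had a liver median of 3.03 TPM and a highest value of 3821 TPM (CC039). Without CC016 and CC033, limma q was 0.27 for Mup18 along Mup21, 0.13 for Mup17 along Mup3, 0.11 for Mup16 along Mup5 and 0.102 for Mup10 along Mup1, so these 4 were no longer called. Without the 2 farthest strains, limma q along Mup1 was 0.23 for Mup16, 0.13 for Mup10 and 0.59 for Mup12, and it was 0.138 for Mup16 with log2 CPM of Mup1 and 0.165 for Mup12 without shallow libraries. Mup9 along Mup1 was called under all 7 alternatives. No other Mup gene was called along Mup6 or Mup20. Over all 6 fits, 7 of 48 tests of these genes were called and 22 had an unadjusted p under 0.05.

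The called genes that are not Mup genes included several neighbours of the array. Of the 9485 tested genes outside the family, 9296 had a position on NCBIM37, and 0.387% of these (36 genes) lay within 5 Mb of the array, between 54969676 and 66811897 on chromosome 4. Of 41 genes called along any member, 40 of them with a position, 8 lay there, or 19.5%. This window was chosen after the genes had been seen, and the share is a description.

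Along Mup1, these were Ptgr1, a prostaglandin reductase (-0.74 ± 0.13, limma q = 0.0018), Ugcg, the glucosylceramide synthase (-0.30 ± 0.055, limma q = 0.0055), Hdhd3 (0.47 ± 0.11, limma q = 0.062), Epb41l4b (0.34 ± 0.082, limma q = 0.068) and Tnc, the matrix protein tenascin C (0.69 ± 0.18, limma q = 0.098). Ptgr1 and Ugcg were called in 7 of 7 settings, whereas without the 2 farthest strains limma q was 0.23 for Hdhd3, 0.502 for Epb41l4b and 0.36 for Tnc, and without CC016 and CC033 it was 0.13 for Epb41l4b. Ptgr1 at chr4:58978311-58999991 and Ugcg at chr4:59202129-59235705 lie before the array, and Hdhd3 at chr4:62160042-62164501 after it. Epb41l4b, a band 4.1 family gene at chr4:57004844-57156309, was also the 1 gene called along Mup20 (0.46 ± 0.068, limma q = 0.00013). Within the 41 strains of the upper range of Mup20, limma q for Epb41l4b was 0.44.

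Along Mup21, the 3 nearby genes were Prpf4, a splicing factor (0.13 ± 0.030, limma q = 0.088, at chr4:62069831-62088024), and the orosomucoid genes Orm1 (-1.39 ± 0.27, limma q = 0.031, at chr4:63005594-63009197) and Orm2 (-1.09 ± 0.26, limma q = 0.090, at chr4:63023483-63026912). Orosomucoids are acute-phase plasma proteins and lipocalins like the major urinary proteins. Orm1 had the opposite sign along Mup1 (1.09 ± 0.28, limma q = 0.104) and along Mup3 (1.197 ± 0.282, limma q = 0.19), where it was not called. Without CC016 and CC033, q along Mup21 was 0.099 for Orm1 and 0.57 for Orm2.

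The other 9 genes called along Mup21 all fell, and included Icam1, a leukocyte adhesion molecule (-0.41 ± 0.082, limma q = 0.031), the proliferation genes Top2a (-0.63 ± 0.14, limma q = 0.068) and Mki67 (-0.61 ± 0.14, limma q = 0.088), and the Kupffer cell gene Cd5l (-0.39 ± 0.091, limma q = 0.088). Without CC016 and CC033, q was 0.28 for Icam1, 0.35 for Top2a, 0.46 for Mki67 and 0.53 for Cd5l, and 1 gene was called along Mup21. CC016 is the liver with the lowest Mup21 and the highest Icam1 and Top2a.

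The lists of other genes linked to this family by function gave few calls. Of 18 tested male-biased liver genes, 1 was called in 6 fits: Cyp4a12a, a fatty acid hydroxylase, along Mup5 (0.42 ± 0.095, limma q = 0.099, and 0.12 without CC016 and CC033). At an unadjusted p under 0.05, 36 of 108 tests of these genes were positive and 0 negative, or 33.3%, against 3.57% positive over all genes and fits. Cyp7b1, an oxysterol hydroxylase, had p under 0.05 along all 6 members, with coefficients of 0.36 to 0.47 and limma q of 0.30 to 0.56.

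Of 7 tested female-biased genes, 0 were called, and at an unadjusted p under 0.05, 14 of 42 tests were negative and 0 positive, against 4.27% negative over all genes and fits. Acot3, an acyl-CoA thioesterase, had coefficients of -0.95 to -1.31 along 5 members, with limma q of 0.33 to 0.58. Of 14 tested regulators of the family, among them Ghr, Stat5b and Hnf4a, 0 were called, and 5 of 84 tests had an unadjusted p under 0.05, all negative. Rsl1, a zinc finger repressor of male-specific liver genes, had coefficients of -0.50 along Mup20, -0.40 along Mup5 and -0.34 along Mup21, with limma q of 0.41 to 0.64.

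Of 10 tested lipocalins, Orm1 and Orm2 were called along Mup21. None of the 9 genes of the acute-phase list, which held no orosomucoid, was called, and 7 of 54 tests had an unadjusted p under 0.05, all negative. None of the 10 hepatocyte markers was called, and 12 of 60 tests had an unadjusted p under 0.05, 8 of them positive. Of 7 tested genes of other liver cells, Cd5l was called along Mup21 as above, and Clec4f, another Kupffer cell gene, had a coefficient of -0.23 along Mup21 (limma q = 0.15). The lists' genes vary together across strains, and their tests are not independent.

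The genes most like the 3 most abundant members by Spearman rho over 47 livers, other Mup genes apart, are given as a description. For Mup3 they were Acadsb (0.55), Cyp2j5 (0.55), Ugt2b5 (0.53), Pgrmc1 (0.53) and Ugt2b1 (0.51), of which Ugt2b5 was called (limma q = 0.086, and 0.13 without CC016 and CC033), and the most negative were Six5 (-0.50), Zfp605 (-0.50), Polm (-0.49), Atp6v0d2 (-0.49) and Amotl1 (-0.49). For Mup20 they were Serpine2 (0.63), Epb41l4b (0.57), Moxd1 (0.55), Cyp4a12b (0.52) and Abca2 (0.52), and the most negative Pola2 (-0.56), Tmem203 (-0.51), Zfp995 (-0.51), Igsf8 (-0.50) and Gm10804 (-0.48). For Mup21 they were Snora65 (0.54), Prpf4 (0.52), Dennd6b (0.51), Syvn1 (0.49) and Flrt1 (0.47), and the most negative Hpse (-0.61), Ostf1 (-0.57), Tgfbi (-0.54), Top2a (-0.54) and Il18bp (-0.51). The points share depth and scaling factors.

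Between tissues, the members were far higher in liver. The comparison used limma-voom on the libraries of all 3 tissues with strain and tissue as covariates, over 12127 genes, and a call needed q ≤ 0.1 and a change of 1 or more on the log2 scale. The filter kept Mup1, Mup3, Mup20 and Mup21. Mup1 and Mup21 exceeded 1 CPM in 47 livers but in 1 and 8 lungs and 5 and 3 kidneys, so they entered through liver and had to differ, whereas Mup3 exceeded it in 40 lungs and 34 kidneys and Mup20 in 30 and 26. All 4 were called higher in liver than in lung and than in kidney, where 23.9% and 15.6% of all genes tested were.

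Against lung, the log2 fold change was 11.30 ± 0.18 (SE, limma q = 6.35e-79) for Mup1, 11.23 ± 0.22 (q = 6.35e-71) for Mup3, 11.01 ± 0.20 (q = 2.31e-73) for Mup21 and 10.55 ± 0.21 (q = 7.40e-70) for Mup20. Against kidney it was 11.28 ± 0.23 (limma q = 1.44e-68) for Mup3, 11.08 ± 0.21 (q = 6.20e-72) for Mup21, 10.95 ± 0.22 (q = 8.32e-70) for Mup20 and 10.77 ± 0.19 (q = 1.44e-75) for Mup1. Mup1, Mup3 and Mup21 were higher in liver than in either other tissue of the same mouse in 47 of 47 strains. Mup20 was higher in 47 of 47 against kidney and in 46 of 47 against lung, the exception being CC068, which has the lowest liver Mup20.

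In lung, Mup3 had a lowest, median and highest value of 0.76, 11.1 and 339 TPM, and Mup20 of 0, 6.16 and 66.2. In kidney the values were 0.29, 6.27 and 80.2 TPM for Mup3 and 0, 4.22 and 32.8 for Mup20. The range of Mup3 in lung overlapped that in liver only through the shallow lung library of CC010. The next highest lung had 64.6 TPM (CC053), under the lowest liver at 106. Both ranges of Mup20 overlapped those in liver, whereas the highest Mup3 in kidney was below the lowest in liver. Mup1 and Mup21 had median counts of 1 and 2 in both tissues and were above 3 counts in 11 and 18 lungs and in 9 and 12 kidneys.

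Mup6 was above 3 counts in 2 lungs and 2 kidneys. In kidney it was highest in CC040 (9.44 TPM) and CC041 (3.75 TPM), the same 2 strains in which it was high in liver. In lung it was highest in CC015 (8.27 TPM, 9 counts) and CC040 (3.05 TPM). Mup2, Mup4 and Mup5 were at or under 3 counts in every lung and kidney library, with sums over the 47 libraries of 0 and 2 counts for Mup2, 2 and 0 for Mup4 and 16 and 6 for Mup5 in lung and kidney.

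Between lung and kidney, 0 of the 4 members were called, where 25.5% of all genes were called higher and 20.6% lower in lung. The log2 fold change of lung against kidney was 0.052 ± 0.23 for Mup3 (limma q = 0.83), 0.064 ± 0.19 for Mup21 (q = 0.75) and 0.40 ± 0.21 for Mup20 (q = 0.067), and Mup1 was lower in lung by 0.53 ± 0.17 (q = 0.0025), under the fold threshold and from median counts of 1. An unadjusted p under 0.05 was reached by 1 of the 4.

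The low levels in lung and kidney were set beside hepatocyte markers in the same libraries. The median hepatocyte sum in lung was 0.484% of that in liver and in kidney 0.376%. The median of Mup3 was 0.102% and 0.0576% of its liver median, and that of Mup20 0.202% and 0.138%. As a share of the hepatocyte sum of the same library, Mup3 had a median of 8.89% in liver, 1.63% in lung and 1.40% in kidney, and Mup20 2.32%, 0.885% and 0.671%. Alb alone had a median of 57374 TPM in liver, 89.7 in lung and 53.8 in kidney, a smaller part of the sum outside liver. The make-up of the sum thus differs by tissue, and how much of it comes from hepatocytes in lung and kidney was not tested.

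Over strains, Mup3 rose with the hepatocyte sum in lung (r = 0.51, rho = 0.45, permutation p = 0.00028 and 0.0017) and in kidney (r = 0.48, rho = 0.49, permutation p = 0.00075 and 0.00051, n = 47), and r was 0.46 and 0.59 when the 2 most distant strains were left out. Mup20 rose with it in lung (r = 0.50, rho = 0.47, permutation p = 0.00041 and 0.00099, n = 47, r = 0.44 without the 2 farthest), and in kidney the relation was weaker (r = 0.26, rho = 0.26, permutation p = 0.073 and 0.072, n = 47, r = 0.29 without them). In liver, Mup3 rose with the hepatocyte sum over 47 strains (r = 0.39, rho = 0.37, permutation p = 0.0066 and 0.011, r = 0.35 without the 2 farthest). Within the 41 strains of its upper range, r was 0.56 (rho = 0.49, permutation p = 0.00017 for r). Mup20 in liver had r = 0.12 over 47 strains (permutation p = 0.41) and 0.18 within the 41 strains of its own upper range (permutation p = 0.26). The p-values of these 6 relations are not adjusted. The lung of CC010, one of the shallow libraries, had the highest Mup3, Mup1 and Mup21 of all lungs and the highest hepatocyte sum, 4424 TPM, and the next highest Mup3 in lung was 64.6 TPM (CC053).

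**Figure D5:**
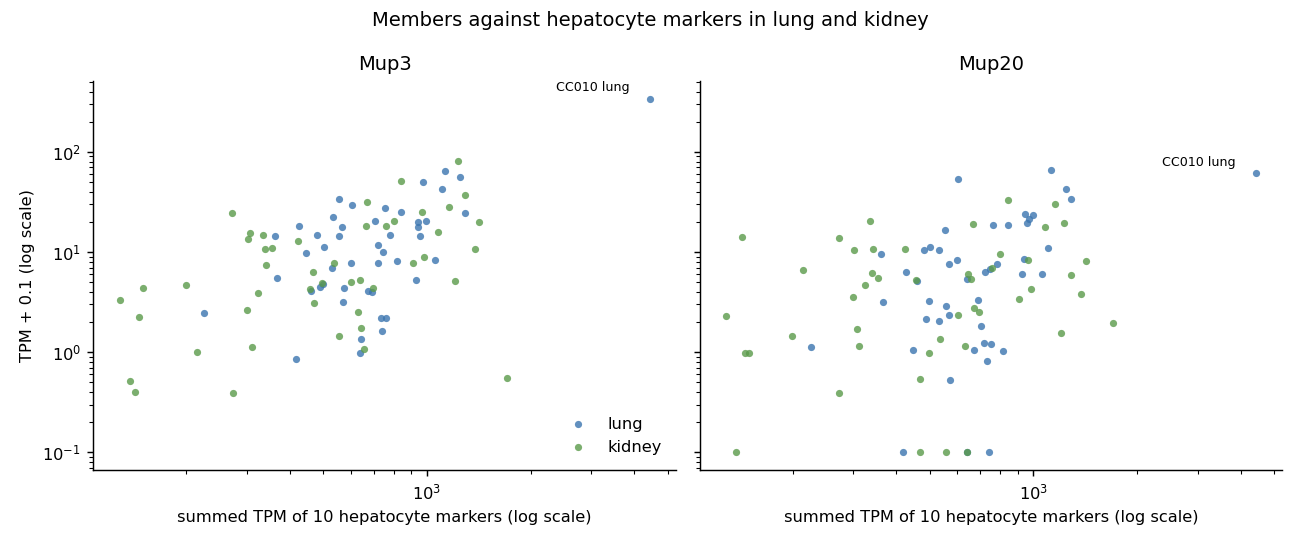
Mup3 (left) and Mup20 (right), as TPM plus 0.1, against the summed TPM of 10 hepatocyte markers in 47 lungs and 47 kidneys, on log scales with 1 point per library. The lung of CC010 lies apart at 4424 TPM of hepatocyte markers and 339 TPM of Mup3.

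Whether strains kept their order between tissues was tested for Mup3 and Mup20 with TMM-normalized TPM of the same mice. Liver and kidney levels of Mup3 were related (r = 0.37, rho = 0.40, permutation p = 0.0092 and 0.0051, n = 47), and within the 41 strains of its upper range r was 0.33 (permutation p = 0.034). The median r over 8967 genes in this pair of tissues was 0.18. No relation was detected between liver and lung levels of Mup3 (r = -0.17, rho = -0.13, permutation p = 0.26 and 0.37, n = 47) or between lung and kidney levels (r = -0.080, rho = -0.12, permutation p = 0.59 and 0.41, n = 47).

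Liver and lung levels of Mup20 had r = 0.35 and rho = 0.37 (permutation p = 0.016 and 0.011, n = 47) against a median of 0.14 over 9028 genes, and r = 0.24 within the 41 strains of its upper range (permutation p = 0.14). No relation was detected between liver and kidney (r = 0.029, rho = 0.0012, permutation p = 0.85 and 0.99) or between lung and kidney (r = 0.029, rho = -0.015, permutation p = 0.85 and 0.92) over 47 strains. The p-values of these 6 relations are not adjusted, and without the 2 most distant strains r stood at 0.40 for Mup3 in liver and kidney and at 0.36 for Mup20 in liver and lung.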

How the data were processed

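Total RNA from liver, lung and kidney of 47 CC strains was sequenced after ribosomal depletion as 50-base single-end reads. Per the labels and the study's methods, the authors aligned reads to strain pseudo-genomes on mm9 with STAR 2.5.3a and RSEM, kept unique alignments, and deposited expected counts, TPM and FPKM per gene. FPKM was not used. Of the expected counts, 25 were not whole and were rounded. The methods name sequencing batches as a covariate, but which library was in which batch was not given in the sources used here, so batch was in no fit.

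Genes that exceeded 1 CPM in 30% or more of the samples entered each test, by limma 3.58.1 (voom, TMM from edgeR 4.0.16, R 4.3.3), with q by Benjamini-Hochberg over all genes and a threshold of 0.1. The tissue comparison had strain as block, since the 3 tissues come from 1 mouse. Permutations, 100000 of each, used Python 3.11.15 and scipy 1.17.1. TPM was compared as log2(TPM + 1), and a count of 3 was the floor. A strain stood apart where the largest gap between neighbouring livers, of at least 1.5 (log2 CPM), split them. The 5 genes with the highest and lowest rho to Mup3, Mup20 and Mup21 were named, with called genes near the array. The members and lists were chosen with earlier results of these data known. On simulated data, the tissue comparison over 12576 genes recovered 98 of 100 genes changed 4-fold and 99 of 100 changed 8-fold. The fit along Mup21 over 9661 genes, also on simulated data, recovered 97 of 100 at a coefficient of 0.6, with 17 false calls. The share of effects of 0.6 that the fits recover in the real livers was not tested. Along Mup21, Hsd3b5 at a coefficient of 0.67 was not called (limma q = 0.115), while Top2a at -0.63 was (limma q = 0.068). Alternatives were DESeq2 1.42.0, other filters, pseudocounts and thresholds, no strain block, and leaving out shallow libraries or outlying strains. With 1 mouse a strain, p-values within a tissue measure the spread between strains. Those of the tissue comparison measure the spread left after strain and tissue.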

Additional observations from a re-analysis of the deposited data

How the results depend on the processing

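The higher level of Mup3 and Mup20 in liver kept its direction and call under every alternative run, and so did that of Mup1 and Mup21, whose entry through the filter fixed it. The 3 tissues of a strain are paired by mouse, and without the replicate block the log2 fold change of lung against kidney was -0.077 for Mup21, -0.33 for Mup1, 0.11 for Mup20 and 0.45 for Mup3. Between lung and kidney, signs also turned for Mup1 with log2(TPM + 1) (0.036) and log2(TPM + 0.1) (0.15), Mup20 with DESeq2 (-0.022), Mup21 with no filter (-0.031) and Mup3 without shallow libraries (-0.10). The alternatives without CC016 and CC033, with library size as a covariate, and within the larger group of strains were chosen after seeing the data. Along Mup1, 17 genes were called with no filter, 14 without the 2 farthest strains, 18 without CC016 and CC033 and 5 at q ≤ 0.01. Along Mup3 it was 7 with log2 CPM as covariate and 0 with library size, within the larger group, without the 2 farthest strains, without CC016 and CC033 and at q ≤ 0.01. Along Mup5 it was 12 with log2 CPM and 3 at q ≤ 0.01. Along Mup6 it was 15 with log2 CPM, 6 within the larger group and without the 2 farthest, 2 without CC016 and CC033, and 0 with library size and at q ≤ 0.01. Along Mup20 it was 10 with log2 CPM, 3 within the larger group and 2 with library size. Along Mup21 it was 168 with log2 CPM, 20 without shallow libraries, 6 with library size, 1 within the larger group and without CC016 and CC033, and 0 without the 2 farthest and at q ≤ 0.01. Calls in the lists changed to 4 male-biased, 2 acute-phase and 2 other liver cell genes with log2 CPM, and to 0 male-biased and 0 other liver cell genes with library size, without CC016 and CC033 and at q ≤ 0.01, where lipocalins also had 0. For Mup20, r between liver and lung was 0.24 within the larger group, r between liver and kidney was -0.015 without shallow libraries, -0.0085 without the 2 farthest and -0.046 within the larger group, and r between lung and kidney was -0.014 and -0.051 under the first 2 of these. In the liver order, Mup3 exceeded Mup20 by 0.65 per unique kilobase (permutation p = 0.274), Mup21 against Mup1 was -2.98 on that scale and 0.62 without CC016 and CC033 (permutation p = 0.0499), and Mup4 exceeded Mup2 by 1.47 with log2(TPM + 0.1) (permutation p = 0.0031). The cause of these changes was not tested. Counts at or near the floor limit Mup4 and Mup5 in every tissue and Mup1 and Mup21 outside liver.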
